A study of Homo sapiens with 8 samples.

Results

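The regions described here are the highest-scoring sites of DNA methylation in U2OS cells, a human osteosarcoma line, and are called the strongest. They were mapped by MeDIP-seq, the sequencing of DNA pulled down with an antibody to methylated cytosine. They were chosen by their deposited peak score, at least 3100 on chromosomes 1 to 22, which left 5408 of 73054 MeDIP peaks there (7.40%). The score is a measured value, so that the scores of these peaks, and their widths, are given as a description. The other 67646 MeDIP peaks are called lower-scoring. Binding of ORCA was mapped by ChIP-seq in U2OS cells synchronized in early, mid and late G1, and the MeDIP sample has no stage in its labels. Each of these 4 samples has an input, which makes 8 samples in groups of 1. No treatment or genetic change is named in the labels of any group. There are no replicates, so stages are compared here without a measure of how much samples vary, and the intervals below are 95% intervals of counting error.

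Methylation of cytosine in CpG pairs is a chromatin mark that is copied after each round of DNA replication. The antibody holds fragments best where its target is frequent. The CpG content of the peaks was not analysed here, so a high score is not read as a measure of how densely methylated CpGs lie. ORCA, also named LRWD1, is a WD-repeat protein that binds the origin recognition complex and is known for its association with heterochromatin, which carries repressive histone marks and methylated DNA. Cells pass through G1 between mitosis and the start of DNA replication, and the origins of replication are prepared in this phase. The comparison described here asks how often the strongest methylated sites carried an ORCA peak at each stage.

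The score did not order these peaks among themselves. Of the 5408, 5172 had a score of exactly 3100 and 236 a higher one, up to 3233.06. This maximum, shared by 6 peaks, equals minus 10 times log10 of the smallest positive double-precision number, 3233.06 as computed here. The sources used here do not say how the scores were computed, nor whether exactly 3100 stands for a stronger or a weaker peak than the scores above it, so the 236 cannot be ranked against the 5172. The 236 peaks above 3100 were narrower: their median width was 1669.5 bp, and that of the peaks at 3100 was 2128 bp. The 375 peaks with scores from 2900 to under 3100 had a median of 1615 bp. Positions are given in the build hg19, counted from 1. The 3 peaks just below the limit scored 3099.57 at chr8:1797364-1798794, 3099.44 at chr17:3588469-3594603, and 3099.42 at chr17:41790687-41792031. The lowest scores above it were 3100.51 at chr19:37824787-37826130, 3100.81 at chr9:137261667-137264494, and 3101.11 at chr13:58203282-58204637.

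The strongest peaks were found on all 22 chromosomes, and chromosome 19 held the most. It carried 544 of them, which were 10.1% of the strongest peaks and 10.1% of the MeDIP peaks of that chromosome. Chromosome 1 followed with 458, chromosome 7 with 383, chromosome 2 with 364 and chromosome 16 with 363, and chromosome 21 had the fewest, 83. Relative to the span between the first and last peak of any list, chromosome 19 held 9.21 strongest peaks per Mb, chromosome 22 held 5.66, chromosome 17 held 4.32 and chromosome 16 held 4.03. The lowest densities were 0.759 per Mb on chromosome 3 and 0.958 on chromosome 4. The share of a chromosome's MeDIP peaks that reached 3100 varied less, from 5.80% on chromosome 3 to 10.1% on chromosome 19, so that most of the spread in density was shared with the whole MeDIP list. Of the strongest peaks, 38.0% lay close to an end of the peak-bearing part of a chromosome, with their middle at most 5 Mb from it, against 31.2% of the lower-scoring ones.

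**Figure D1:**
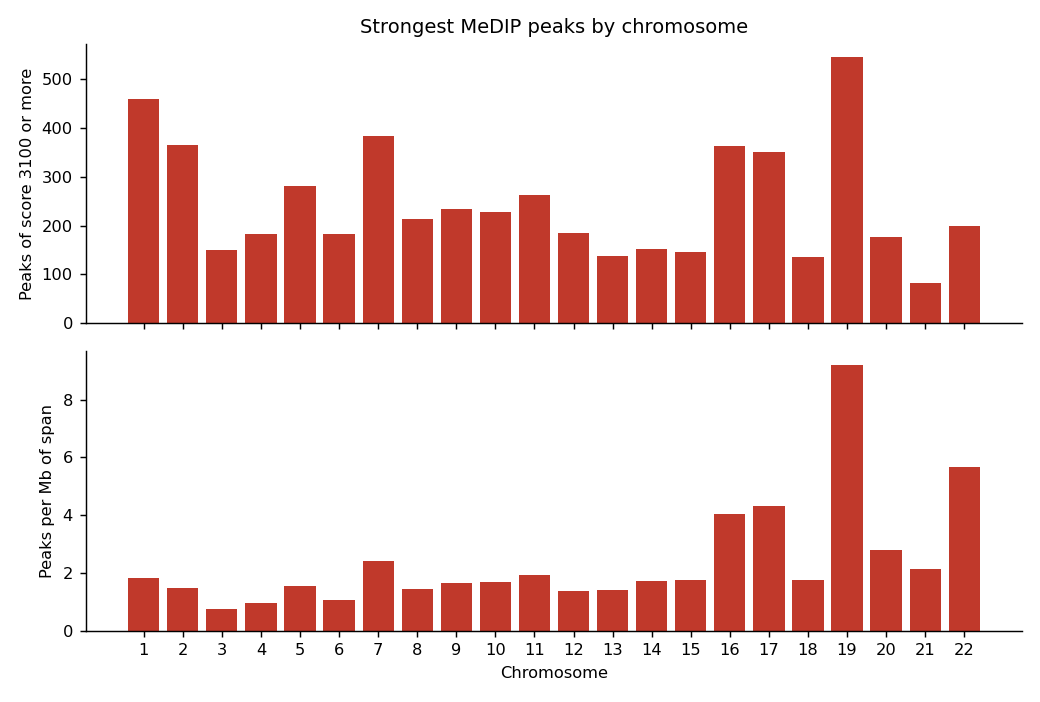
Number of MeDIP peaks with a score of 3100 or more on each chromosome (upper bars) and the same number per Mb between the first and last peak of the chromosome (lower bars). Chromosome 19 stands highest in both, with 544 peaks and 9.21 per Mb.

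Most of the strongest peaks stood apart from each other. The median distance to the nearest of them was 23.03 kb, and 37.4% had one within 10 kb. When peaks at most 10 kb apart were joined, 3387 stood alone (62.6%) and 645 (11.9%) lay in 120 runs of 4 or more. The same number of MeDIP peaks next in score, those from 1351.81 up, gave 74 runs with 356 peaks (6.58%) and a median distance of 26.5 kb. The number of runs followed the distance allowed: with 5 kb it was 63 against 32, and with 50 kb it was 243 against 270, so that the order of the 2 sets turned round. In bins of 1 Mb the strongest peaks filled 1429 bins, and 35 bins with 20 or more held 21.9% of them. The set next in score had 45 such bins with 23.3% of its peaks, so that by this measure it was the more clustered.

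Chromosome 19 had the most runs, 18 with 82 peaks, followed by chromosome 16 with 15 runs and chromosome 7 with 12. The longest run by number had 19 peaks between 228743928 and 228784390 on chromosome 1, in a stretch of 40.5 kb. The next had 12 peaks at chr7:1021625-1082506. A run of 11 lay at the end of chromosome 10, from 135477506 to 135498727, and another of 11 at chr5:140552715-140627620. A run of 10 lay close to the last one, at chr5:140202277-140264555. Genes at these places were not assigned here.

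The strongest peaks were wide. Their median width was 2110.5 bp, with the middle 50% between 1537.5 and 3065 bp, while the lower-scoring peaks had a median of 798 bp. They made up 7.40% of the MeDIP peaks but 17.8% of the bases in them, 13.9 of 77.6 Mb. Of the MeDIP peaks of 5000 bp or more, 384 were among the strongest and 49 were not. Narrow members were few: 3 were under 500 bp and 303 under 1000 bp. The widest was 19800 bp, at chr7:56877216-56897015. The next were 19545 bp at chr8:144988667-145008211, and 16355, 14967 and 14960 bp on chromosome 16, starting at 2743052, 2155016 and 593128. These 3 on chromosome 16 met an ORCA peak in mid G1 alone, and the first 2 met one at each stage. The narrowest was 396 bp, at chr20:259719-260114, and had no ORCA peak.

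The strongest methylated sites carried an ORCA peak more often in mid G1 than in early or late G1. Of 5408, 1369 overlapped a mid peak by at least 1 bp (25.3%, interval 24.2 to 26.5), against 6.14% of all MeDIP peaks. An early peak was found at 774 (14.3%, interval 13.4 to 15.3), against 4.68% of all MeDIP peaks. A late peak was found at 227 (4.20%, interval 3.69 to 4.77), against 0.914%. At least 1 stage was found at 1536 (28.4%), against 8.19%, and all 3 stages at 201 (3.72%), against 0.676%. The other 3872 had no ORCA peak. Lists of ORCA peaks differ in length, with 10640 early, 10306 mid and 1321 late peaks on these chromosomes, and a shorter list gives fewer overlaps. With each list reduced to its 1321 highest-scoring peaks, early ORCA was found at 5.18%, mid ORCA at 7.21% and late ORCA at 4.20%. Of the 236 peaks with a score above 3100, 14.0% met a mid peak (interval 10.1 to 18.99), against 25.8% of those at exactly 3100 (interval 24.7 to 27.04) and 20.5% of those from 2900 to under 3100 (interval 16.8 to 24.9).

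Wide peaks meet an ORCA peak more often, so the strongest peaks were next set beside lower-scoring peaks of similar width. In mid G1 the strongest peaks were then still higher, by 8.88 percentage points (interval 7.18 to 10.6): 25.3% against 16.4% of lower-scoring peaks weighted to the same width classes. In early G1 the shares were 14.3% and 14.6%, a difference of -0.241 points (interval -1.77 to 1.32). In late G1 they were 4.20% and 2.93%, a difference of 1.27 points (interval 0.320 to 2.25). Without weighting, the strongest peaks had been 10.4, 20.7 and 3.55 points higher in early, mid and late G1. The early difference was 2.45 points (interval 1.38 to 3.60) without the widest 5% of MeDIP peaks, and 6.15 points when MeDIP peaks at most 10 kb apart were joined. With ORCA lists of equal length the stages lay closer together. The differences were then 0.704 points in early (interval -0.379 to 1.82), 2.27 in mid (interval 1.10 to 3.47) and 1.27 in late G1 (interval 0.320 to 2.25). In each of the 8 width classes the strongest peaks still had the larger median width, such as 2410 against 2300 bp from 2000 to under 3000 bp. With 16 width classes the differences were 8.22 points in mid, -1.07 in early and 0.910 in late G1. The late interval then held 0, from -0.150 to 2.002. For the 236 peaks above 3100 alone the mid difference was 1.83 points (interval -2.08 to 6.87), the early one -3.11 and the late one -1.45.

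The mid difference was present across most widths. Among peaks of 750 to under 1000 bp, 18.1% of the 210 strongest overlapped a mid ORCA peak (interval 13.5 to 23.9), against 3.27% of 16171 lower-scoring ones. Among those of 1500 to under 2000 bp it was 20.1% of 1224 (interval 17.9 to 22.4) against 9.91% of 4704, and among those of 3000 to under 5000 bp 33.2% of 1031 against 26.1% of 670. At 5000 bp or more the shares were 46.9% of 384 and 51.0% of 49, with intervals that overlapped.

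In early G1 the direction depended on width. Among peaks of 1500 to under 2000 bp, 10.4% of the strongest and 7.40% of the lower-scoring peaks overlapped an early ORCA peak, a difference of 2.98 points (interval 1.21 to 4.95). At 5000 bp or more it was 35.9% and 53.1%, a difference of -17.1 points (interval -31.1 to -2.59) that rests on 49 lower-scoring peaks. The early values near 0 over all widths thus joined classes with opposite signs.

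**Figure D2:**
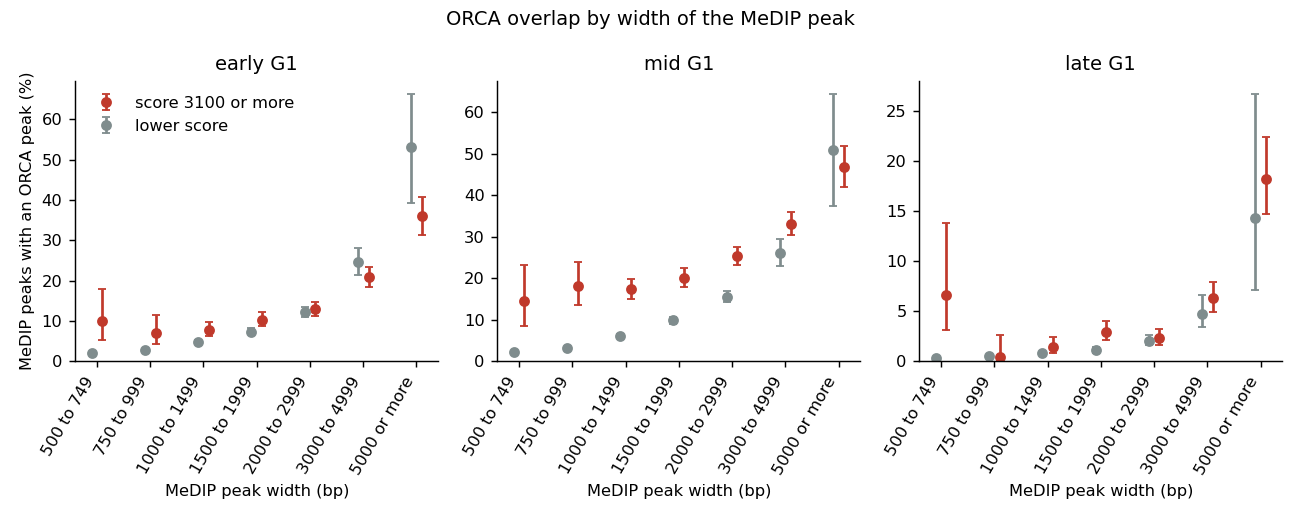
Share of MeDIP peaks that overlap an ORCA peak, by width class of the MeDIP peak, for early, mid and late G1 (each panel has its own scale). Points are the strongest peaks (score of 3100 or more) and the lower-scoring ones, bars are 95% Wilson intervals, and the class under 500 bp, with 3 strongest peaks, is left out. In mid G1 the strongest peaks lie above the lower-scoring ones in the classes from 500 to under 5000 bp.

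In the 4 width classes from 500 to under 3000 bp, overlap with mid ORCA peaks was higher in each score class from 1000 up than in the one before it. Among peaks of 1000 to under 1500 bp it was 4.68% at scores from 200 to under 500, 6.75% from 500, 9.19% from 1000, 12.9% from 2000 and 17.3% at 3100 or more. The last class was the strongest peaks, 165 of 952 (interval 15.1 to 19.9). Its interval did not overlap that of the scores from 1000 to under 2000 (7.96 to 10.6). It did overlap that of the scores from 2000 to under 3100 (10.7 to 15.5). Among peaks of 2000 to under 3000 bp the mid share was 18.8% at scores from 2000 to under 3100 (interval 15.7 to 22.2). At 3100 or more it was 25.4% (interval 23.2 to 27.6). At 500 to under 1000, 1500 to under 2000 and 3000 to under 5000 bp the mid intervals of these score classes overlapped. Among peaks of 3000 to under 5000 bp the order did not hold: the mid share was 29.8% of 124 at scores from 500, 22.04% of 245 from 1000, 24.4% of 217 from 2000 and 33.2% at 3100 or more. At low scores the order depended on width. The mid share in the 3 classes under 500, from the lowest up, was 1.45%, 2.08% and 3.05% among peaks of 500 to under 1000 bp, and 19.7%, 14.8% and 12.8% among those of 2000 to under 3000 bp, where the lowest class held 61 peaks. Early shares also rose with score in part of the range. Among peaks of 500 to under 1000 bp they went from 1.67% in the lowest score class to 10.8% from 2000. Among peaks of 1000 to under 1500 bp they were 4.60% from 500, 6.15% from 1000 and 7.87% from 2000. At 3000 to under 5000 bp they were 28.2%, 18.4% and 24.9% in these score classes. In early G1 the strongest peaks were not set apart from the class below in any one direction. The shares at scores from 2000 to under 3100 and at 3100 or more were 10.8% and 8% among peaks of 500 to under 1000 bp, 7.87% and 7.88% at 1000 to under 1500 bp, and 9.36% and 10.4% at 1500 to under 2000 bp. They were 12.9% and 12.9% at 2000 to under 3000 bp and 24.9% and 20.9% at 3000 to under 5000 bp, and in each of these 5 widths the intervals overlapped. In late G1 the shares stayed at or under 3.04% in the classes under 3000 bp. Among peaks of 500 to under 1000 bp they went from 0.241% in the lowest score class to 2.33% at 3100 or more. Among peaks of 2000 to under 3000 bp they were 3.04% at scores from 2000 and 2.31% at 3100 or more.

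**Figure D3:**
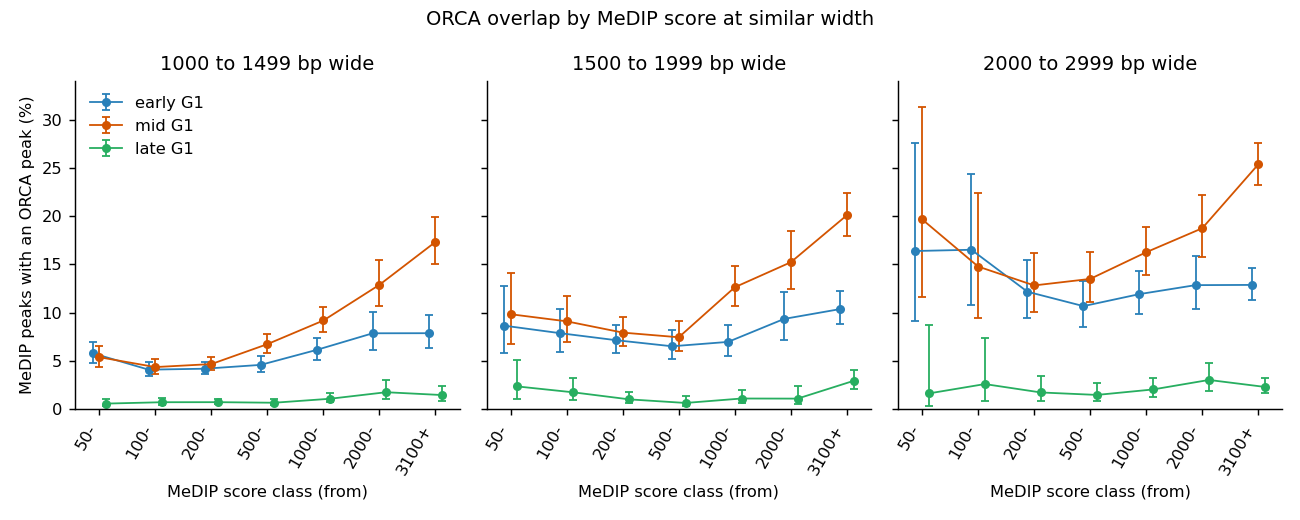
Share of MeDIP peaks that overlap an early, mid or late G1 ORCA peak, by MeDIP score class (each labelled by its lower limit), in 3 width classes. Bars are 95% Wilson intervals. The mid values reach 17.3%, 20.1% and 25.4% at a score of 3100 or more, and the early values there are 7.88%, 10.4% and 12.9%.

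The commonest pattern among the strongest peaks with ORCA was a mid peak alone. This was found at 745 (13.8%), against 6.29% of lower-scoring peaks weighted to the same widths, a difference of 7.49 points. An early peak alone was found at 153 (2.83%), against 4.48% at equal width, which was 1.65 points lower in the strongest peaks (difference -1.65, interval -2.54 to -0.733). Early and mid peaks without a late one were found at 411 (7.60%), and the share at equal width was 7.48%. All 3 stages together were found at 3.72%, against 2.45% at equal width. A late peak alone was found at 5 peaks. Of the 227 strongest peaks with a late peak, 222 also had an early or mid one. Most lower-scoring peaks with a late peak had another stage too: of 441, only 44 had a late peak alone. Without weighting to width, 79.1% of the strongest peaks with an early ORCA peak also had a mid one, against 51.4% of the lower-scoring peaks, and 44.7% of those with a mid peak also had an early one, against 43.7%.

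Chromosomes differed widely in how many of their strongest methylated sites carried ORCA. In mid G1 the share was 58.2% on chromosome 7, 50% on chromosome 8, 46.7% on chromosome 22 and 35.6% on chromosome 17, and the median chromosome had 24.3%. Lower-scoring peaks weighted to the same widths differed widely too. Their mid shares were 47.0% on chromosome 7, 53.2% on chromosome 8, 19.9% on chromosome 22 and 22.7% on chromosome 17. Chromosome 19, with the most strongest peaks, had the lowest share in mid G1, 22 of 544 (4.04%), and in early G1, 14 (2.57%). In late G1 it had 2 (0.368%). The lower-scoring peaks of chromosome 19 were low as well, with 3.17% in mid, 2.17% in early and 0.911% in late G1 at equal width. At equal width, mid overlap was higher in the strongest than in the lower-scoring peaks on 21 of 22 chromosomes, and on 16 the interval lay above 0. Chromosome 8 was the exception, with a difference of -3.17 points. The largest differences were 26.8 points on chromosome 22, 25.7 on chromosome 18 and 20.3 on chromosome 4. In early G1 the difference was positive on 14 of 22 chromosomes, with intervals above 0 on 4 and below 0 on 1, chromosome 8 (-12.0 points).

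**Figure D4:**
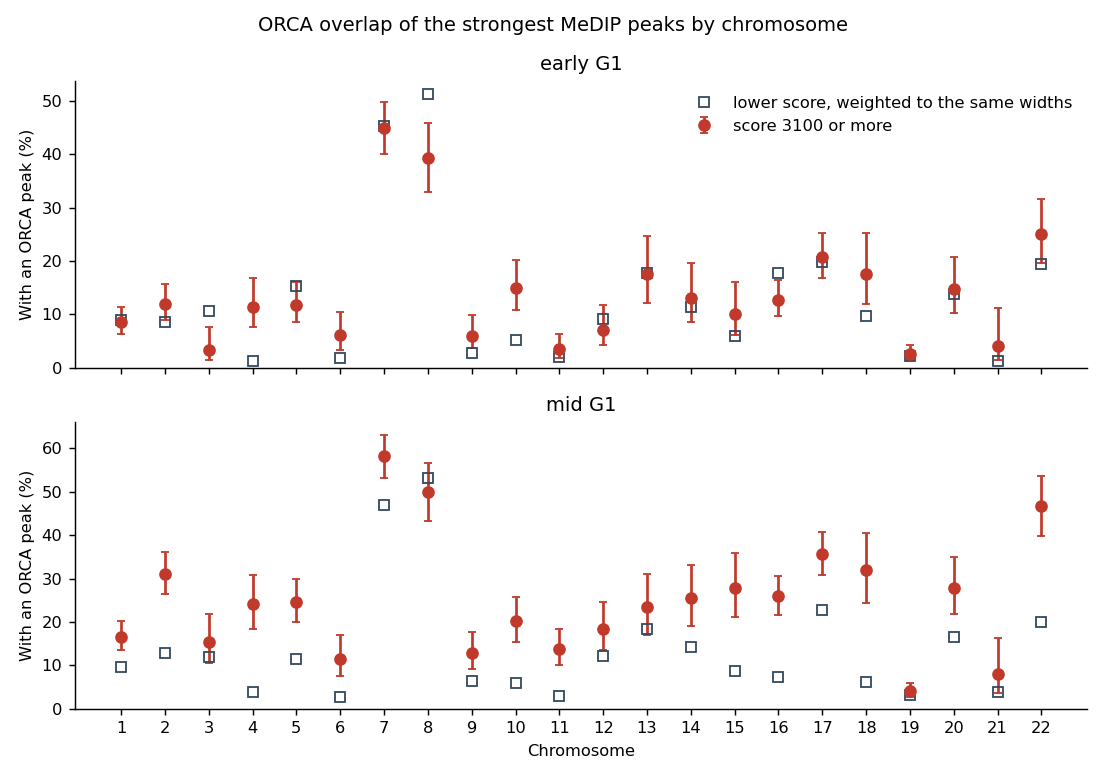
Share of the strongest MeDIP peaks that overlap an early (upper panel) or mid (lower panel) G1 ORCA peak on each chromosome, with 95% Wilson intervals, beside the share of lower-scoring peaks of that chromosome weighted to the same widths. Width classes with no lower-scoring peak on a chromosome are left out of both. In mid G1 the strongest peaks are higher on 21 of 22 chromosomes, with chromosome 19 near the bottom at 4.04%.

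The start of chromosome 7 (up to 7 Mb) and the end of chromosome 8 (beyond 140 Mb), where ORCA peaks were dense, held 267 of the strongest peaks. Of these, 91.8% overlapped a mid, 83.1% an early and 37.5% a late ORCA peak, and the weighted shares of the lower-scoring peaks there were 79.9%, 77.5% and 20.8%. Without these ends, the strongest peaks had a mid share of 21.9%, an early share of 10.7% and a late share of 2.47%. The differences at equal width were then 10.4, 1.10 and 0.975 points in mid, early and late G1. The early share was then 3.57 points lower, the mid share 3.45 and the late share 1.73, and 100 of the 227 strongest peaks with a late ORCA peak lay in these ends. Leaving out chromosomes 7, 8, 17 and 22 gave differences of 10.2 points in mid, 2.13 in early and 1.26 in late G1, all 3 with intervals above 0.

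Bins with many strongest peaks ranged from no ORCA to ORCA at every one of them. The bins also differed widely in how many ORCA peaks they held at all. From 1 to 2 Mb on chromosome 19 there were 62 strongest peaks, the most of any bin, and none overlapped an ORCA peak of any stage. That bin held 1 early, 0 mid and 0 late ORCA peaks. From 1 to 2 Mb on chromosome 7 there were 53 strongest peaks, and all of them overlapped one: 53 a mid, 49 an early and 28 a late peak. That bin held 325 early, 290 mid and 62 late ORCA peaks. The bin from 80 to 81 Mb of chromosome 17 had 44 strongest peaks, of which 23 did. The first Mb of chromosome 7 had 44, of which 36 did, and the first Mb of chromosome 19 had 42, of which 2 did. Of the 35 bins with 20 or more strongest peaks, 5 had no ORCA overlap and 13 had one at more than 50% of the peaks. The 5 such bins on chromosome 19 had at most 9.52%.

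**Figure D5:**
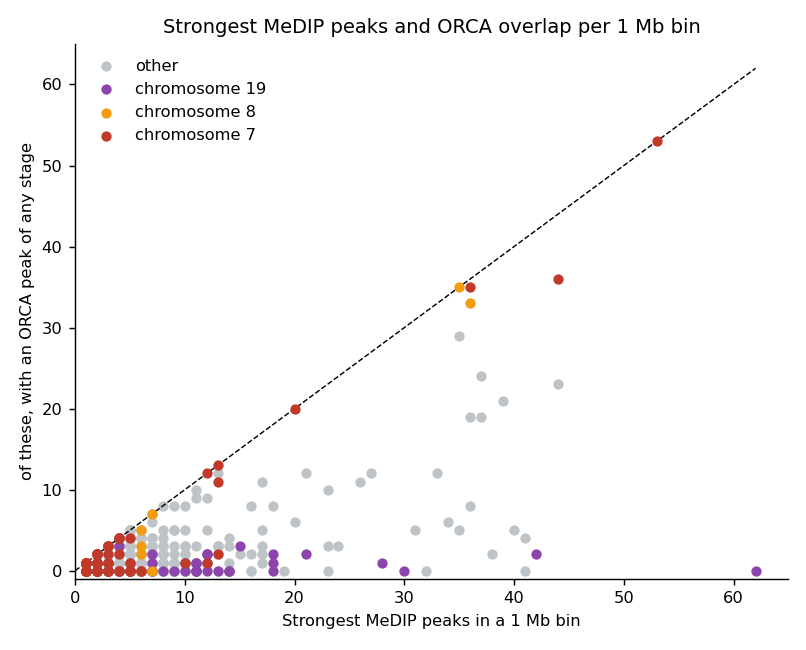
Number of strongest MeDIP peaks in each 1 Mb bin with at least 1 of them (1429 bins) against the number of these that overlap an ORCA peak of any stage. The dashed line marks bins in which all do, and points on it or near the bottom include the bins on chromosome 7 with 53 of 53 and on chromosome 19 with 0 of 62.

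Runs of strongest peaks showed the same contrast. Of the 120 runs, 73 had at least 1 peak with ORCA, 21 had ORCA at every peak and 47 had none. On chromosome 19, 17 of 18 runs had none. The run of 19 on chromosome 1 and the run of 11 on chromosome 5 had no ORCA peak of any stage. The run of 12 on chromosome 7 had 12 peaks with mid, 11 with early and 4 with late ORCA. Runs also lay close to the ends of chromosomes 4 and 10. The 8 peaks from 190987917 to 191013648 on chromosome 4 all overlapped ORCA at each of the 3 stages, while of the 11 at the end of chromosome 10, early ORCA was found at 10, mid ORCA at 0 and late ORCA at 4. These counts rest on few, wide ORCA peaks: 4 early, 3 mid and 4 late peaks touched the first run, and 3 early and 1 late peak the other. In all, peaks in runs had a mid share of 32.6% and peaks alone 27.7% at equal width. Without the dense ends of chromosomes 7 and 8 the order turned, to 21.2% in runs and 25.4% alone (difference -4.24 points, interval -8.00 to -0.131). Without chromosomes 7, 8, 17 and 22 the difference was -3.11 points, with an interval that held 0 (-6.92 to 1.11).

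Where ORCA met a strongest peak, it mostly lay within it. Of the overlapping mid ORCA peaks, 75.5% lay fully inside the MeDIP peak, as did 67.8% of the early and 58.5% of the late ones. Among lower-scoring MeDIP peaks, which are narrower, these shares were 36.5%, 29.6% and 18.95%. The shared stretch had a median of 633 bp in mid, 683 bp in early and 1007.5 bp in late G1. Middles of ORCA peaks were found more often in the central part of the methylated stretch: of 1839 mid ORCA peaks with their middle inside a strongest peak, 28.1% lay in the middle 20% of its width and 12.1% and 10.8% in the outer 20% at either side. Early ORCA peaks had 24.9% in the middle stretch and 15.2% and 14.2% in the outer ones. Some strongest peaks held several ORCA peaks. Of the 1369 with mid ORCA, 396 met 2 or more mid peaks, and of the 774 with early ORCA, 251 met 2 or more early peaks, up to 8. Among lower-scoring peaks it was 321 of 3115 with mid and 307 of 2646 with early ORCA, up to 6. These counts are not weighted to width.

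ORCA peaks were also counted per base of MeDIP peak, without weighting to width. Middles of mid ORCA peaks numbered 133 per Mb inside strongest peaks, 38.0 per Mb inside lower-scoring peaks and 2.23 per Mb outside MeDIP peaks. For early ORCA these densities were 74.6, 29.7 and 2.84 per Mb, and for late ORCA 17.8, 3.89 and 0.304 per Mb. The outside densities are over 2717 Mb between the first and last peaks of the chromosomes, with only MeDIP peaks taken out. Any stretch to which no read could be mapped is thus included, which lowers them. The ratio of strongest to lower-scoring peaks was thus 2.51 for early, 3.50 for mid and 4.57 for late ORCA. These ratios include the difference in width. At equal width the early share was 0.983 times that of lower-scoring peaks, the mid share 1.54 times and the late share 1.43 times. The late ratio counts 246 late peaks, and 100 of the 227 strongest peaks with late ORCA lay in the dense ends described above. Strongest peaks without mid ORCA were at a median distance of 105 kb from the nearest mid peak, and 13.8% of them had one within 10 kb.

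Seen from the ORCA lists, 1956 of 10306 mid peaks met a strongest MeDIP peak (18.98%, interval 18.2 to 19.7). The same held for 1157 of 10640 early peaks (10.9%, interval 10.3 to 11.5) and 275 of 1321 late peaks (20.8%, interval 18.7 to 23.1). Strongest peaks hold 17.8% of the bases in MeDIP peaks, and they accounted for 39.03% of mid, 30.8% of early and 43.4% of late ORCA peaks that met any MeDIP peak. Mid ORCA peaks at strongest sites had higher scores within their list. Their median was 84.4, against 74.0 at lower-scoring MeDIP peaks only and 65.1 at none. Among mid ORCA peaks of 500 to under 1000 bp, which are of similar width, the medians were 83.3, 72.7 and 67.9. Early ORCA peaks of this width had medians of 69.9, 66.6 and 63.7, and late ones 63.0, 63.4 and 68.6. In the highest-scoring 20% of the mid list, 32.3% met a strongest MeDIP peak (interval 30.3 to 34.4), against 11.7% in the lowest-scoring 20% (interval 10.4 to 13.2). In the early list the same shares were 21.3% and 6.59%, with intervals that did not overlap, and in the late list 22.3% and 15.1%, with intervals that did. Overlap with lower-scoring MeDIP peaks only was also higher in the highest-scoring 20% of the mid and early lists. It was 36.5% against 23.7% in the mid list and 36.0% against 17.1% in the early list. In the late list it was 24.6% against 24.5%. Higher-scoring ORCA peaks were wider, with medians of 1253 and 465 bp in these parts of the mid list.

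Among strongest peaks under 5 kb that met ORCA at all 3 stages, the one with the best mean ORCA rank lay at chr6:107389551-107392086. It was 2536 bp wide, and the ORCA peaks there had the top score of 3100 in each list, with starts at 107389730, 107389812 and 107389752 in early, mid and late G1. The next lay at chr7:157939374-157942195, where the early ORCA peak scored 1912, the mid peak 3100 and the late peak 2158. A peak at chr1:161438487-161442652 met ORCA peaks of 12665, 12708 and 12593 bp in early, mid and late G1, which scored 3100, 2755 and 1553. On chromosome 20, the peak from 26188346 to 26190422 had 2238, 2048 and 866. The fifth, at chr4:191008804-191010342, belonged to the run near the end of that chromosome, with 1397, 719 and 849.

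Strongest peaks met at a single stage are given by the highest score of the ORCA peak there. For early G1 the 3 with the highest ORCA score all lay in the run at the end of chromosome 10: those from 135493839 to 135495429 and from 135495998 to 135497113 met the same early peak, with a score of 923, and the one from 135489388 to 135490502 met one of 331. For mid G1 they lay at chr2:45394962-45398541, with a score of 350, at chr7:1148770-1150418, with 335, and at chr22:29875325-29877781, with 298. For late G1 they lay at chr5:14460309-14461965, chr17:65372719-65374284 and chr11:69460250-69467085, with scores of 87.0, 85.3 and 67.1. The early ORCA peak of 923 ranked in the first 0.573% of its list, the mid peak of 350 in the first 2.38% and the late peak of 87.0 in the first 34.4%.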

How the data were processed

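The data were peak lists of 3 ORCA ChIP-seq samples and 1 MeDIP-seq sample from U2OS cells, 1 sample per group. Per the submitters' processing notes, Trimmomatic and Bowtie 0.12.7 were used, with the genome build GRCh37, which is hg19. The peak names start with MACS. The caller's version, settings, control and read numbers are not given in the sources used here, so the depth is unknown. The lists hold a start, an end and a score for each peak. The score was used as deposited and only within its list.

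Peaks on chromosomes 1 to 22 were used, and starts, counted from 0 in the lists, are printed from 1. An overlap meant at least 1 shared bp. Shares have 95% Wilson intervals. Lower-scoring peaks were weighted to the widths of the strongest peaks in 8 classes, with limits at 500, 750, 1000, 1500, 2000, 3000 and 5000 bp. The interval of the weighted share came from its binomial variance, and differences were combined by Newcombe's method. Intervals hold counting error alone, although peaks near each other may depend on one another. With 1 sample per group no test between stages was run. The overlap and weighting code was tested on simulated data. The 4 inputs, genes and sequence were not analysed here.

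The members, lists and settings were chosen with earlier results of these data known. Regions were named by rule: the 5 strongest peaks under 5 kb that met ORCA at each stage and had the best mean rank of the ORCA peaks, 3 per stage met by that stage alone with the highest ORCA score, the 5 widest, the 5 runs and 5 bins of 1 Mb with most members, and peaks next to the score limit. The narrowest peaks, and the runs and bins named beyond the first 5, were chosen after their values were seen. Calculations used Python 3.11.15, numpy 2.4.6, pandas 2.3.3 and matplotlib 3.10.9.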

Additional observations from a re-analysis of the deposited data

Results flagged for a closer look

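The difference at equal width between strongest and lower-scoring MeDIP peaks had opposite signs in 2 stages: -0.241 points in early and 8.88 points in mid G1. The early interval held 0, and with 1 sample per stage the difference between the stages was not tested. With ORCA lists of equal length both differences were positive, 0.704 points in early (interval -0.379 to 1.82) and 2.27 in mid G1 (interval 1.10 to 3.47). Outside chromosomes 1 to 22, MeDIP peaks of at least 3100 were also found on sequences that the comparisons left out. The X chromosome had 92, the Y chromosome 8, unplaced or unlocalised sequences 22 and the haplotype sequences 8. Of the 92 on the X chromosome, an early ORCA peak was met by 1, a mid peak by 1 and a late peak by 1, and none of the others met an ORCA peak. The matching share of all MeDIP peaks on these sequences is not given here, nor is the number of ORCA peaks on them. These counts are therefore not compared with the shares on chromosomes 1 to 22.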

How the results depend on the processing

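Each group held 1 sample, so no sample could be left out, and no paired analysis was possible because the labels give no replicate numbers. The planned results on genes and CpG content were not run, since no reference of the files' build was used here. Over 13 alternatives the difference at equal width ranged from 1.83 to 16.5 points in mid G1 (positive in 13, interval above 0 in 12), from -3.11 to 6.15 in early G1 (positive in 7) and from -1.45 to 2.27 in late G1 (positive in 12). With the score above 3100 only, 236 peaks were left: the shares were 7.20% early, 14.0% mid and 0.424% late, and the differences -3.11, 1.83 and -1.45, the last with the opposite sign. The cause was not tested. Counting ORCA peaks within 1 kb gave shares of 15.8%, 26.9% and 4.86%. The higher-scoring 50% of each ORCA list gave 10.5%, 17.6% and 2.51%, with a mid difference of 5.92. ORCA lists of equal length gave 5.18% early and 7.21% mid. The differences were then 0.704 early (interval -0.379 to 1.82), 2.27 mid (interval 1.10 to 3.47) and 1.27 late (interval 0.320 to 2.25). Without the dense ends on chromosomes 7 and 8 the shares were 10.7%, 21.9% and 2.47%. Leaving out the widest 5% of MeDIP peaks gave 9.71%, 19.7% and 2.13%, with an early difference of 2.45. Joining MeDIP peaks within 10 kb gave a mid share of 26.8% and differences of 6.15, 16.5 and 2.27. Runs numbered 63 with a gap of 5 kb and 243 with 50 kb. The next alternatives were chosen after seeing the data. Weighting to chromosome and width gave a mid difference of 11.02, and lower-scoring peaks of at least 1000 gave 7.05. Leaving out chromosomes 7, 8, 17 and 22 gave shares of 9.27%, 19.3% and 2.28%, with an early difference of 2.13. The late interval also held 0 when peaks within 1 kb were counted, with the higher-scoring ORCA peaks and with 16 width classes.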
